A study of Mus musculus with 2 samples.

Results

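The 10 immediate early genes Fos, Fosb, Jun, Junb, Egr1, Egr3, Arc, Npas4, Nr4a1 and Nr4a3 were described here in single nuclei of mouse entorhinal cortex. They were matched by symbol, and all 10 were among the 31053 genes counted. The study asked what the treatment of ageing APP/PS1 mice with N-oleoyl-leucine, an N-acyl amino acid that its labels call C18:1-Leu and that is called OLE here, does to each cell type of the brain. There were 2 libraries. The OLE library came from male APP/PS1 mice that received 25 mg/kg/day of the compound in alkaline drinking water, and the vehicle library came from male APP/PS1 mice that received DMSO in the same way. Treatment ran from 15 to 18 months of age. Each library pooled the entorhinal cortex of 5 mice, so each condition is 1 sample. Both groups carry the APP/PS1 transgenes, which lead to deposits of amyloid in the brain, and no wild-type library was analysed here. Since the design has no replicates, no test was run, and every interval below is a 95% interval for counting error only, which does not cover differences between mice, dissections or library preparations.

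The 10 genes lie on 8 chromosomes of the mouse build GRCm38 (mm10). By GENCODE vM21, Fos (ENSMUSG00000021250) lies at chr12:85473890-85477273, Fosb (ENSMUSG00000003545) at chr7:19302696-19310051, Jun (ENSMUSG00000052684) at chr4:95049034-95052222 and Junb (ENSMUSG00000052837) at chr8:84974484-84978718. Egr1 (ENSMUSG00000038418) lies at chr18:34859823-34864984, Egr3 (ENSMUSG00000033730) at chr14:70077203-70082614, Arc (ENSMUSG00000022602) at chr15:74669083-74672570 and Npas4 (ENSMUSG00000045903) at chr19:4984355-4990316. Nr4a1 (ENSMUSG00000023034) lies at chr15:101254269-101274795 and Nr4a3 (ENSMUSG00000028341) at chr4:48045153-48086447. They are compact, from 3189 bases for Jun, which has 1 exon, to 41295 bases for Nr4a3. Jun overlaps the antisense gene Junos, and Junb overlaps Prdx2 on the opposite strand. Whether the counting used strand is not given in the sources used here, so part of the counts of these members could belong to those neighbours.

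Immediate early genes are transcribed within minutes of a stimulus without a need for newly made protein. In neurons, synaptic activity raises calcium and activates kinases that act on factors already bound to their promoters, such as CREB and SRF, and the RNAs fade soon after the stimulus ends. Most of them encode transcription factors that switch on later genes, whereas Arc encodes a protein that acts at synapses. They are used as marks of recently active neurons, and stress, injury and handling of tissue also raise many of them. Jun and Junb are also transcribed in glial and vascular cells.

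Promoters are shown because all 10 members had higher levels in the OLE library in the largest class of neurons. RefSeq promoter windows on GRCm38.p6 were on hand for 7 of the 10 members (Fos, Fosb, Jun, Junb, Npas4, Nr4a1 and Nr4a3), and motifs were searched on both strands in the 250 bases before the start. The core TGACG of the cAMP response element (CRE), the site that CREB binds, was found in 6 of the 7 windows, compared with 17.8% of all 32851 promoters. The search included exonic bases. All 250 bases of the Npas4 window were exonic, as were 152 of the 250 of Nr4a3, with a core 147 bases before the start. The full CRE TGACGTCA, which contains that core, the AP-1 site TGANTCA and the CArG box of SRF were found in 0 of 7, compared with 1.55%, 6.75% and 1.47% of all promoters. The EGR site GCGNGGGCG was found in Fosb and Nr4a1 (4.70% of all promoters) and the TATA box TATAAA in Fos (12.4%). The Jun window held none of the 6 motifs. A match is a string of letters and not a measured binding site, and no match says only that the letters are not in this window. In the sequences below, from 5′ to 3′ on the strand of the gene, capitals mark the matches, exonic bases were left out, and CGTCA and CGCCCCCGC are the CRE core and the EGR site read on the other strand. Fos is shown for its pair of CRE cores and its TATA box (chr12:85473640-85473889, plus strand), Fosb for a CRE core beside an EGR site (chr7:19310052-19310295, minus strand), Nr4a1 for 4 CRE cores and an EGR site (chr15:101266596-101266845, plus strand, within the annotated span of the gene), Nr4a3 for 3 CRE cores (chr4:48045055-48045152, plus strand) and Jun as the member without a match (chr4:95052223-95052472, minus strand).
Fos: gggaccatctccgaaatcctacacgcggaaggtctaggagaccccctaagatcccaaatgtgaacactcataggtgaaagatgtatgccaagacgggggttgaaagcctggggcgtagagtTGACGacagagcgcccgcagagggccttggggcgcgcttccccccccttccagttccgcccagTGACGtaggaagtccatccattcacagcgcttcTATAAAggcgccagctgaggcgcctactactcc
Fosb: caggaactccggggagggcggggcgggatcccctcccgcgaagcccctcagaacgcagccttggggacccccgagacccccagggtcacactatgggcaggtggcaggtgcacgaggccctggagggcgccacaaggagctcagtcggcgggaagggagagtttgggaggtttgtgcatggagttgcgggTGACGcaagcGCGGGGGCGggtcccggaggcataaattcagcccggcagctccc
Nr4a1: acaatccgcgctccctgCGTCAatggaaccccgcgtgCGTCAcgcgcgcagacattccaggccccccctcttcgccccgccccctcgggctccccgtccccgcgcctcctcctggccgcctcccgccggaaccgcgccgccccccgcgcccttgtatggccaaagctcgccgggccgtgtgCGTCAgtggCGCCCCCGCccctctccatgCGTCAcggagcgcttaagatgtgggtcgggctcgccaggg
Nr4a3: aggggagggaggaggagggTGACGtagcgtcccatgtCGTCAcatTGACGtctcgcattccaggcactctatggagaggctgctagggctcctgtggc
Jun: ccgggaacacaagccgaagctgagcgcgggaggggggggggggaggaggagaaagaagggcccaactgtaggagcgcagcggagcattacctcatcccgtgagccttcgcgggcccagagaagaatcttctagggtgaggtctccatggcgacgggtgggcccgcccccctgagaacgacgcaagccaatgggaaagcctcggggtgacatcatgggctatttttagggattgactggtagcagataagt

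The counts are unique molecular identifiers (UMIs), each of which stands for 1 captured RNA molecule. Totals were 70845739 UMIs from 6745 nuclei (vehicle) and 69485537 UMIs from 6173 nuclei (OLE), with medians of 3989 and 6392 UMIs per nucleus. A total of 14 barcodes occurred in both libraries. After removal of likely doublets, 12298 nuclei fell into 25 clusters, which were formed without the members and without the other immediate early genes listed for this work. From marker genes, 12 clusters were called glutamatergic-like (excitatory neurons, 1927 vehicle and 1861 OLE nuclei) and 2 clusters GABAergic-like (inhibitory neurons, 325 and 354 nuclei). The other named classes were oligodendrocyte-like (1132 nuclei), microglia-like (610), astrocyte-like (257), oligodendrocyte precursor-like (185), vascular leptomeningeal-like (87 and 85 by library), endothelial-like (48) and mural-like (27). The rule that turns markers into names was set after the clusters had been seen. It left 3 clusters without a name. Cluster 0, with 36.2% of the nuclei, had 10 of 11 oligodendrocyte markers and most glutamatergic markers raised at the same time, few UMIs, a median of 2365 in the vehicle and 4747 in the OLE library, and as leading genes Spag5, Cck and Ndrg4. Cluster 3 (809 nuclei) was led by Ttr and by ferritin, ribosomal and mitochondrial genes and had the fewest UMIs, and cluster 18 (141 nuclei) had raised glutamatergic markers and the GABAergic marker Kcnip1 among its leading genes.

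Over all nuclei, the 10 members together gave 9159 UMIs in the vehicle library and 12471 in the OLE library, or 129 and 179 CPM. CPM is used here for the UMIs of a gene per 1000000 UMIs of the same nuclei. The class with the most member UMIs was the glutamatergic-like one, and there every member had a higher level in the OLE library than in the vehicle library. The summed members stood at 5697 UMIs, or 126 CPM, in the vehicle library and at 7033 UMIs, or 171 CPM, in the OLE library. The log2 ratio of OLE over vehicle was 0.45 (0.39 to 0.50). Depth was not lower in the vehicle library for these nuclei, with medians of 21072 and 19455 UMIs.

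Of the AP-1 family, the basic leucine zipper factors that bind DNA as pairs, Fos, Fosb, Jun and Junb were all more than 1.5-fold higher in the OLE library in glutamatergic-like nuclei. Fos, the partner that must pair with a Jun protein to bind DNA, had 106 UMIs (2.34 CPM) in the vehicle and 173 (4.21 CPM) in the OLE library, a log2 ratio of 0.85 (0.49 to 1.21). In nuclei thinned to 2000 UMIs, where far fewer UMIs remain, the ratio of Fos was 0.23, given without a counting interval. Junb, a Jun protein induced by activity, had 508 UMIs (11.2 CPM) and 776 (18.9 CPM), a log2 ratio of 0.75 (0.59 to 0.92). For both, the ranges of counting error in the 2 libraries did not overlap. Fosb, whose truncated form is known to build up with repeated stimulation, had the fewest UMIs, 53 (1.17 CPM) and 78 (1.90 CPM), and a log2 ratio of 0.70 (0.18 to 1.23). Jun, a target of stress kinases as well as of activity, had 177 UMIs (3.91 CPM) and 251 (6.12 CPM), a log2 ratio of 0.65 (0.36 to 0.93).

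The zinc finger factors differed in size. Egr1 had 905 UMIs (20.0 CPM) in the vehicle and 955 (23.3 CPM) in the OLE library, and its log2 ratio of 0.22 (0.09 to 0.35) was the lowest of the 10. Egr3, which is known to act downstream of the same signals, had 350 UMIs (7.73 CPM) and 476 (11.6 CPM), and its log2 ratio of 0.58 (0.38 to 0.79) lay at the 1.5-fold limit itself. Arc encodes a synaptic protein that promotes the uptake of AMPA receptors from the membrane. It had 537 UMIs (11.9 CPM) and 672 (16.4 CPM), a log2 ratio of 0.46 (0.30 to 0.63). Npas4, a factor that in neurons responds to calcium rather than to growth factors or stress hormones, had 397 UMIs (8.77 CPM) and 472 (11.5 CPM), a log2 ratio of 0.39 (0.20 to 0.59). Both were higher in the OLE library by less than 1.5-fold.

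The orphan nuclear receptors of the Nr4a family act as factors without a known hormone. Nr4a1 had 2135 UMIs (47.2 CPM) in the vehicle and 2414 (58.8 CPM) in the OLE library, a log2 ratio of 0.32 (0.23 to 0.40). Nr4a3 had 529 UMIs (11.7 CPM) and 766 (18.7 CPM), a log2 ratio of 0.68 (0.51 to 0.84). Both were higher in the OLE library, and only Nr4a3 was past 1.5-fold.

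**Figure D1:**
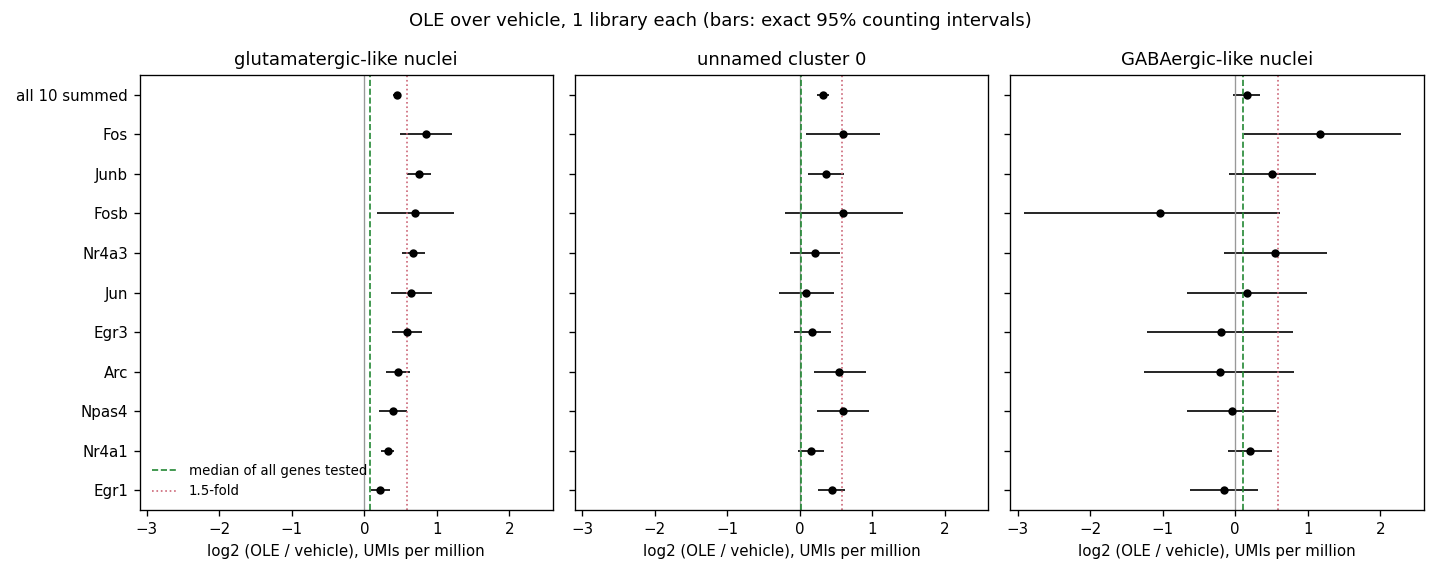
The x axis is the log2 ratio of OLE over vehicle in CPM, the rows are the 10 members and their sum, and the panels are glutamatergic-like nuclei, unnamed cluster 0 and GABAergic-like nuclei, with bars for exact 95% counting intervals. In the left panel all 10 members lie above 0, from 0.22 for Egr1 to 0.85 for Fos, while in the right panel the members lie on both sides of 0.

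A shift of this kind has to be read against the other genes. In glutamatergic-like nuclei, 6 of the 10 members (Fos, Fosb, Jun, Junb, Egr3 and Nr4a3) were at least 1.5-fold higher in the OLE library, compared with 7.41% of the 18063 genes with at least 20 UMIs. None was 1.5-fold lower, compared with 1.77% of genes. Counted only over genes no longer than Nr4a3, 9.01% of 11675 genes were past that fold, and over genes with at least 100 UMIs 3.63% were. The median log2 ratio was 0.62 for the members, 0.07 for all genes and 0.12 for the genes no longer than Nr4a3, and 65.9% of all genes lay above 0. Gene length thus moved with the ratio in these libraries, and its part in the members' values was not tested beyond these counts. Scaled to the UMIs of genes no longer than Nr4a3, the summed ratio was 0.32 and 2 of the 10 members were past 1.5-fold. The share of all genes past 1.5-fold under that scaling is not given here, so this count cannot be read against the other genes. Summed markers of GABAergic neurons in the glutamatergic-like nuclei were 229 CPM in the vehicle and 339 CPM in the OLE library, those of oligodendrocytes 162 and 160, and those of microglia 63.2 and 69.2. The part of such RNA in the members' values was not tested.

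Lists of related genes were counted in the same nuclei. There, 7.41% of the 18063 genes with at least 20 UMIs were past 1.5-fold higher and 1.77% past it lower. Of 29 other immediate early genes with at least 20 UMIs, 27 had a higher level in the OLE library, 9 were past 1.5-fold and none was past it in the other direction, with a median log2 ratio of 0.42. The highest were Egr2 (1.82, from 10 to 32 UMIs), Dusp1, a phosphatase that ends MAP kinase signals (0.87), and Egr4 (0.80). The lowest were Zfp36 (−0.44, from 12 to 8 UMIs), Klf6 (−0.07) and Maff (0.00). Of 16 genes of the late response, which the early factors help to switch on, 13 had a higher level in the OLE library, 3 of them past 1.5-fold, and the median was 0.24. Those 3 were Scg2 (1.08) and Vgf (0.81), both cargo of secretory granules, and Gpr3 (0.78, from 18 to 28 UMIs). The lowest were Baz1a (−0.12), Mapk4 (−0.05) and Pim1 (−0.03). Genes of the pathway upstream, which encode the calcium channels, kinases and factors that carry the signal, had a median of 0.05, with 16 of 29 above 0 and none past 1.5-fold in either direction. Their range ran from −0.16 for Rps6ka5 to 0.47 for Mapk3, the kinase ERK1. Of 9 heat shock genes, all 9 were above 0 and 2 were past 1.5-fold, Hspa1a (0.88) and Hspa8 (0.82). Heat shock genes respond to stress of tissue and cells, and their median was 0.39, where 65.9% of all genes lay above 0. Their relation to the members was not tested.

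In GABAergic-like nuclei the summed members had 474 UMIs (67.4 CPM) in the vehicle and 492 (75.2 CPM) in the OLE library, and the interval of the log2 ratio, 0.16 (−0.03 to 0.34), included 0. Of the 9 members with at least 20 UMIs, only Fos was past 1.5-fold, with 12 and 25 UMIs (a log2 ratio of 1.16, 0.12 to 2.29), where 10.5% of 13646 genes were past that fold. Fosb, with 11 and 5 UMIs, was below the minimum. The 2 clusters of the class differed. The cluster led by Kcnc2, which also had Sst among its leading genes, had 44.3 and 61.2 member UMIs CPM (a log2 ratio of 0.47, 0.20 to 0.73), and the cluster led by Adarb2 with Vip had 113 and 103 (−0.14, −0.40 to 0.13). The intervals of these ratios did not overlap, but a difference between clusters of 1 pair of libraries has no replicate behind it.

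In cluster 0 the members stood at 251 CPM in the vehicle and 313 CPM in the OLE library, above the glutamatergic-like level in both, and the log2 ratio was 0.32 (0.23 to 0.40). All 10 were above 0 there, with a median of 0.40, and 3 of 10 (Fos, Fosb and Npas4) were past 1.5-fold, compared with 4.38% of 15241 genes. All 3 lay within 0.01 of the limit on the log2 scale. Egr1 had 53.0 and 71.9 CPM, a log2 ratio of 0.44 (0.25 to 0.63), whereas Jun had 15.3 and 16.2 CPM, 0.09 (−0.28 to 0.46). In cluster 3, the summed members had 224 and 335 CPM (0.59, 0.30 to 0.87), and 3 of 8 members were past 1.5-fold where 15.6% of genes were. They were Egr3, with 16 and 50 UMIs, Jun, with 12 and 25, and Arc, with 9 and 19. Mitochondrial transcripts made up 9.47% and 8.29% of UMIs in cluster 3. Nuclei of cluster 0 were deeper in the OLE library, and the part of that depth in the ratios was not tested.

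The other classes held far fewer member UMIs. The oligodendrocyte-like class had 92.9 and 90.5 CPM in the vehicle and OLE libraries (a log2 ratio of −0.04, −0.34 to 0.27), and none of its 7 members with at least 20 UMIs was past 1.5-fold, compared with 9.17% of genes. The microglia-like class had 117 and 154 CPM (0.40, 0.00 to 0.80). Of its 5 members with at least 20 UMIs, 1 member was past 1.5-fold higher, where 9.85% of genes were. That member was Egr3, with 9 and 12 UMIs. The astrocyte-like class had 69.4 and 59.5 CPM (−0.22, −0.80 to 0.35), the oligodendrocyte precursor-like class 80.5 and 95.5 (0.25, −0.29 to 0.78), and the vascular leptomeningeal-like class 60.1 and 94.03 (0.65, with an interval above 0) from 40 and 66 UMIs. Endothelial-like nuclei had the highest level of the glial and vascular classes, 253 and 232 CPM, but from 34 and 40 UMIs.

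Ordered by summed level, cluster 0 and cluster 3 came first in both libraries, followed by the glutamatergic-like and microglia-like classes among the classes with more than 50 nuclei. Neighbours in that order mostly did not differ beyond counting error, with intervals that overlapped for 8 of 9 neighbouring pairs in the vehicle and 7 of 9 in the OLE library. The order was not the same for every member. Arc and Npas4 were highest in cluster 0 and cluster 3 and then in glutamatergic-like nuclei in the OLE library. Nr4a3 was highest in cluster 18, with 33.5 and 42.9 CPM, compared with 11.7 and 18.7 CPM in glutamatergic-like nuclei. Among the classes with more than 50 nuclei, Junb in the vehicle library was highest in microglia-like nuclei, with 32.9 CPM from 29 UMIs, although its interval overlapped that of cluster 0 at 30.7 CPM.

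**Figure D2:**
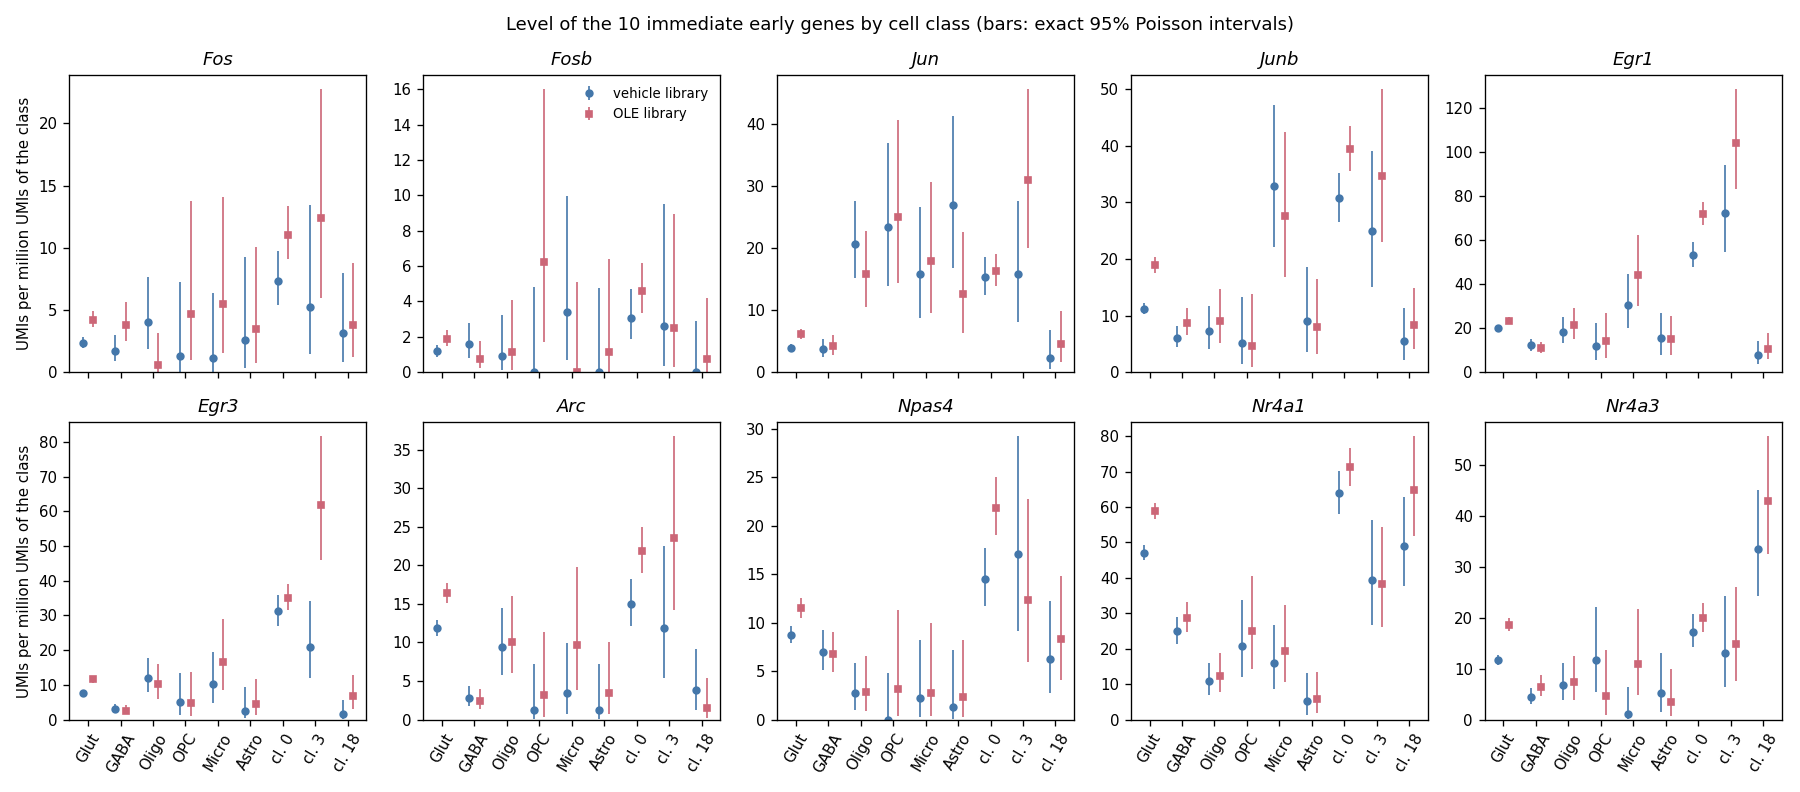
Each panel is a member, the y axis is its level in CPM, the x axis lists glutamatergic-like, GABAergic-like, oligodendrocyte-like, oligodendrocyte precursor-like, microglia-like and astrocyte-like nuclei and the unnamed clusters 0, 3 and 18, and bars are exact 95% Poisson intervals. Jun is low in glutamatergic-like nuclei (3.91 and 6.12 CPM) and higher in every glial class, while Nr4a1 is higher in glutamatergic-like nuclei (47.2 and 58.8 CPM) than in oligodendrocyte-like ones.

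Jun was the member whose distribution over classes stood apart. Oligodendrocyte-like nuclei had 20.6 and 15.7 CPM of Jun in the vehicle and OLE libraries, and their precursors 23.4 and 25.0. Astrocyte-like nuclei had 27.0 and 12.6 CPM of Jun, and microglia-like nuclei 15.9 and 17.9. These levels compare with 3.91 and 6.12 CPM in glutamatergic-like nuclei. Free RNA from broken neurons can add neuronal UMIs to any droplet. The members in glia were therefore set beside 16 genes listed as neuron-restricted, such as Slc17a7 and Snap25. In microglia-like nuclei, the highest of the 16 reached 0.99 and 1.09 of the glutamatergic-like level in the vehicle and OLE libraries. The medians there were 0.30 and 0.28. Whether each of the 16 is restricted to neurons was not tested. Relative to cluster 0, these 16 genes had a median level in oligodendrocyte-like nuclei of 0.28 in the vehicle and 0.24 in the OLE library, with the highest at 0.42 and 0.48. Jun stood at 1.35 and 0.97 on the same scale. It was above the highest of the 16 in all 4 glial classes, in both libraries, and with either cluster 0 or the glutamatergic-like nuclei as the reference. Junb met the same condition in microglia-like nuclei, at 1.07 and 0.70 relative to cluster 0, where the highest neuronal genes were at 0.65 and 0.62. With glutamatergic-like nuclei as the reference, Egr1 was also above the highest of the 16 in all 4 classes and both libraries. Egr3 was so in oligodendrocyte-like, oligodendrocyte precursor-like and microglia-like nuclei of both libraries. With cluster 0 as the reference, neither Egr1 nor Egr3 was above it in any of the 4 classes. Npas4 was at or below 0.186 of its cluster 0 level in all 4 classes. Nr4a1 stood at 0.17 in oligodendrocyte-like nuclei of both libraries, below the lowest of the 16 genes, and at 0.08 in astrocyte-like nuclei. On the cluster 0 scale, neither Npas4 nor Nr4a1 was above the highest of the 16 genes in any of the 4 classes. Relative to glutamatergic-like nuclei, Nr4a1 was above it in oligodendrocyte precursor-like nuclei of both libraries. The source of these UMIs was not tested. Between the libraries, Jun in astrocyte-like nuclei had 21 and 11 UMIs, and the interval of its log2 ratio (−1.10, −2.30 to 0.02) included 0. A fold past 1.5 lower was seen in 7.31% of the genes of that class. In vascular leptomeningeal-like nuclei Jun was the only member with at least 20 UMIs, with 9 and 21 UMIs (1.15, −0.04 to 2.46), where 16.3% of genes were past 1.5-fold higher.

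**Figure D3:**
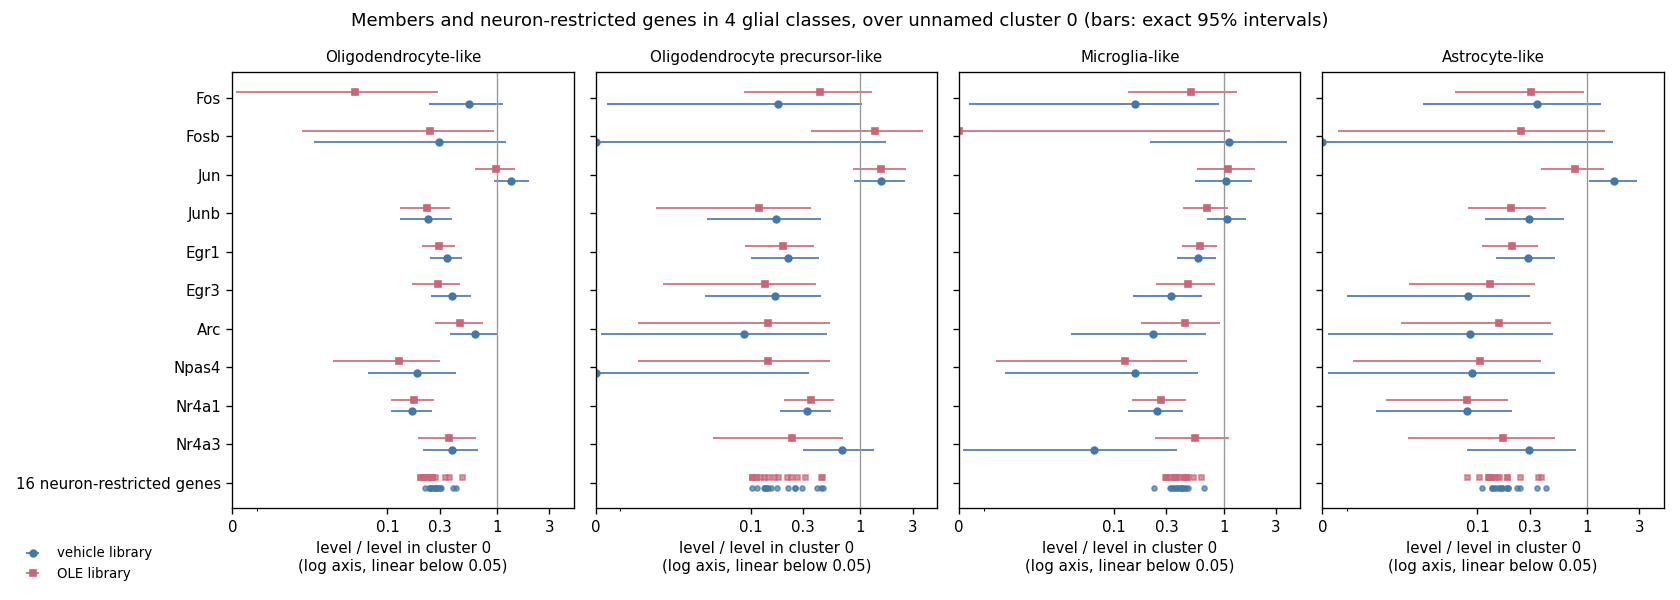
The x axis is the level of a gene in a glial class divided by its level in cluster 0, on a log scale above 0.05, with the 10 members as rows with exact 95% intervals and the 16 neuron-restricted genes as dots in the lowest row. In all 4 panels Jun lies to the right of every neuron-restricted gene in both libraries, for instance at 1.35 and 0.97 in oligodendrocyte-like nuclei.

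The share of nuclei with a UMI of a member depends on depth, so each nucleus was thinned at random to 2000 UMIs and nuclei with fewer were left out (1 glutamatergic-like nucleus in each library). At this depth, 398 of 1926 glutamatergic-like nuclei of the vehicle library (20.7%) and 465 of 1860 of the OLE library (25.0%) had a UMI of any member, a difference of 4.34 percentage points (1.63 to 7.04). Without thinning the shares were 77.2% and 82.4%. Nr4a1 was found in 8.72% and 11.5% of thinned nuclei (a difference of 2.73 points, 0.78 to 4.69) and Junb in 1.97% and 3.33% (1.36 points, 0.30 to 2.44). For the other 8 members the interval of the difference included 0. Egr3 was found in 2.28% and 1.94%, so its share was lower in the OLE library at this depth while its level over all UMIs was higher. Oligodendrocyte-like nuclei at the same depth had any member in 15.96% and 17.2%, and Arc, a gene of neurons, in 1.83% and 2.13%, compared with 2.80% and 3.39% of glutamatergic-like nuclei. Median depths before thinning were 3474 and 3084 UMIs (oligodendrocyte-like) and 21072 and 19455 (glutamatergic-like). The share of neuronal nuclei that free RNA alone would give was not measured. In cluster 0, 38.3% and 45.0% of thinned nuclei had a UMI of a member (a difference of 6.67 points, 3.37 to 9.95), with 727 and 203 nuclei left out for depth. In GABAergic-like nuclei the shares were 14.5% and 12.99% (−1.47 points, −6.90 to 3.91).

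The members were not spread evenly over the glutamatergic-like clusters. In cluster 7, led by Rorb, Kcnh5 and Prr16, the summed members stood at 242 CPM in the vehicle and 362 CPM in the OLE library, compared with 114 and 152 CPM in the other 11 clusters together, or 2.12-fold (1.98 to 2.27) and 2.38-fold (2.24 to 2.53) higher. Cluster 11, led by Hs3st4 with Foxp2 and Syt6, was next with 217 and 248 CPM. The lowest in the vehicle library was cluster 19, led by Cpa6 and Reln, with 86.6 and 119 CPM, and the lowest in the OLE library was cluster 14, led by Gm2164, with 98.0 and 101. Since clusters were formed without the members, their levels did not directly decide which nuclei fell together. Genes of the late response were not left out of the clustering, and their part in the clusters was not tested. In cortex, Rorb is a marker of neurons of the middle layers and Foxp2 of the deepest layer.

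Arc had the highest fold of the members in cluster 7 of the vehicle library and Fos that of the OLE library. Arc stood at 39.5 and 61.0 CPM there, compared with 9.13 and 11.9 CPM in the other clusters (4.33-fold and 5.15-fold higher). Egr1 was 3.69-fold and 4.00-fold higher, at 59.4 and 73.0 CPM, and Fos 2.498-fold and 5.39-fold higher, at 5.15 and 16.2 CPM. Junb (2.21-fold and 2.43-fold), Egr3 (2.44-fold and 2.28-fold), Npas4 (2.24-fold and 2.63-fold) and Nr4a1 (1.55-fold and 2.01-fold) were higher too, and all of these intervals excluded a fold of 1. Fosb was 2.07-fold and 2.16-fold higher, with an interval that included 1 in the vehicle library. Jun and Nr4a3 went the other way. Jun stood at 2.21 and 2.12 CPM in cluster 7, compared with 4.08 and 6.52 in the other clusters, with an interval of the fold that included 1 in the vehicle library, and Nr4a3 at 7.36 and 7.43 compared with 12.1 and 19.8. Nr4a3 was highest in cluster 10, led by Htr2c, with 32.7 and 34.6 CPM, and Jun in the vehicle library was highest in cluster 19, with 10.2 CPM.

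The OLE library had the higher summed level in all 12 glutamatergic-like clusters. The log2 ratio ran from 0.04 (−0.23 to 0.31) in cluster 14 to 0.71 (0.47 to 0.95) in cluster 16, led by Cntnap5b and Wfs1, and the intervals excluded 0 in 10 of the 12. The exceptions were cluster 14 and cluster 22, with 0.27 (−0.06 to 0.61). In cluster 7 it was 0.58 (0.46 to 0.70) and in cluster 11 it was 0.19 (0.03 to 0.35). Fos behaved less evenly than the sum, since clusters 7 and 11 held the highest levels of Fos in the OLE library (16.2 and 7.64 CPM), whereas cluster 14 had 3.73 CPM in the vehicle and 0.49 CPM in the OLE library and cluster 22 had 6.83 CPM and none. Without cluster 7 the log2 ratio of Fos in glutamatergic-like nuclei was 0.54 rather than 0.85, below the 1.5-fold limit, and with every cluster given equal weight it was 0.48. The summed ratio without cluster 7 was 0.41.

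**Figure D4:**
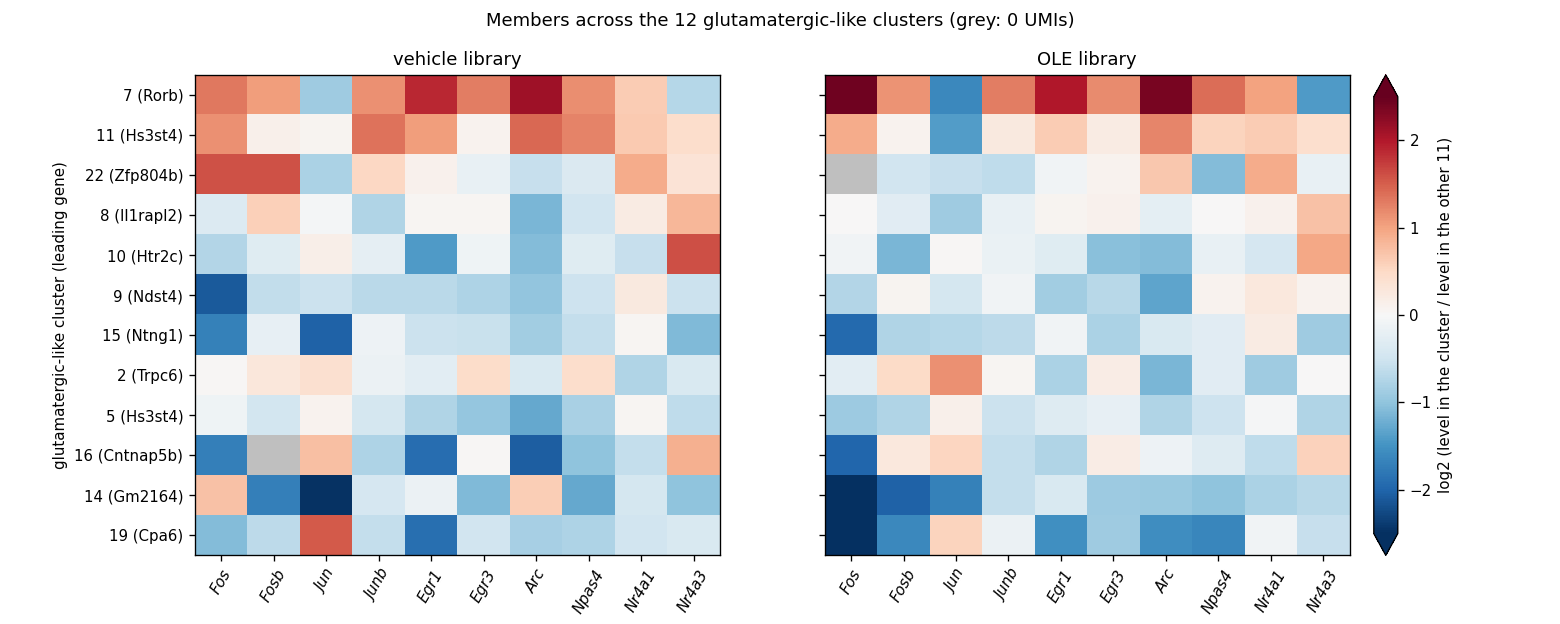
Colours give the log2 ratio of a member's level in a glutamatergic-like cluster over its level in the other 11 clusters, with members as columns, clusters as rows ordered by summed level, and 1 panel per library. The top row, cluster 7, is high for Arc, Egr1, Fos and most other members and low for Jun and Nr4a3 in both panels.

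Members tended to be found in the same nuclei. Glutamatergic-like nuclei were thinned to 5000 UMIs, and the number with both members of a pair was divided by the number that the 2 shares alone would give. The quotient was above 1 for 36 of 45 pairs in the vehicle and 38 of 45 in the OLE library, with medians of 1.71 and 2.06. Fos was seen in 21 and 36 nuclei. Of these, 11 and 20 also had Egr1, or 52.4% and 55.6%, compared with 7.84% and 9.41% of nuclei without Fos. Arc and Egr1 were found together in 26 and 48 nuclei (3.72 and 3.85 times the product of the shares). Pairs with Jun were different, since 4 of 9 in the vehicle and 2 of 9 in the OLE library were above 1. No nucleus held both Fos and Jun in either library, but the 2 shares alone would give only 0.46 and 1.31 nuclei. Counts per pair are small and the members' levels differ between clusters, whose part in the quotients was not tested, so they are given as a description. At this depth, 62 of 1897 nuclei of the vehicle library (3.27%) and 129 of 1843 of the OLE library (6.999%) had UMIs of at least 3 members, a difference of 3.73 points (2.29 to 5.201). At 2000 UMIs the shares were 0.67% and 1.51%.

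**Figure D5:**
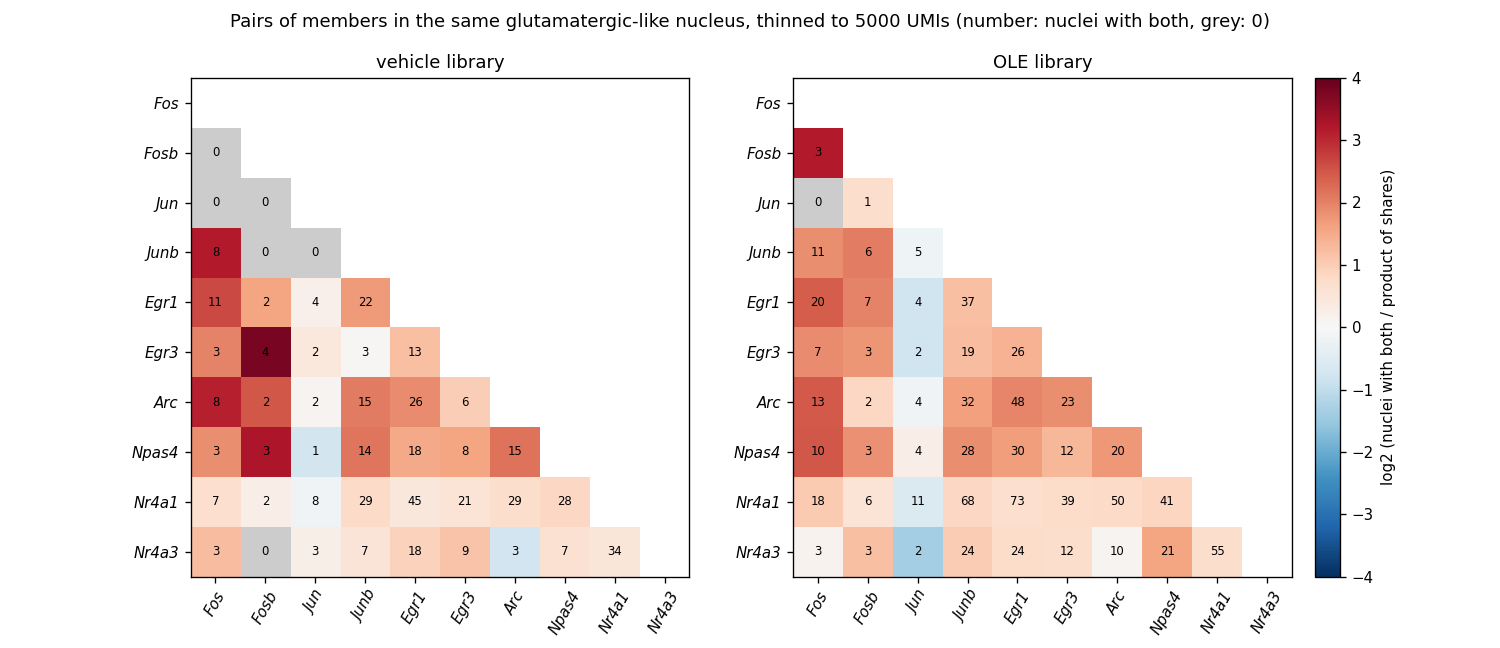
Each cell is a pair of members in glutamatergic-like nuclei thinned to 5000 UMIs, the number printed is the nuclei with both, and the colour is the log2 of that number over the product of the 2 shares, with grey for 0. Most cells are red, such as Arc with Egr1 (26 and 48 nuclei), while the Jun column is pale or blue.

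Genes with the most similar pattern were named by correlation. Over 3740 glutamatergic-like nuclei thinned to 5000 UMIs in a separate random draw, the gene whose log level went most with the number of members detected was Homer1, which has a short form induced by activity (r = 0.24), followed by Egr4 (0.21), Btg2 (0.20), Pde10a (0.20) and R3hdm1 (0.20). Ntrk2, the receptor of BDNF, Dusp1, Maml3, Bdnf and Slc1a2 completed the first 10, with r from 0.18 down to 0.16. Bdnf was found in 34.7% of the 167 nuclei with at least 3 members in this draw and in 9.66% of the 2112 with none, and Btg2 in 23.4% and 3.50%. Nuclei share library and cluster, so these values carry no test. Over the sums of each of the 25 clusters in each library (50 points that share libraries and depth), the genes whose levels went most with the members' mean level included Arpp19 (r = 0.76) and Olfm1 (0.73), and also Spcs3, Actr1b, Phyhip, 1110008P14Rik, Dnajb5, Cdk5r1 and Ddn (0.73 to 0.71).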

How the data were processed

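Nuclei of frozen entorhinal cortex were sequenced by the study with the 10x Genomics 3′ v3 kit. The authors deposited raw UMI counts per gene and nucleus, made with Cell Ranger (3.0.1 in the submitters' processing notes, 3.0.2 in the matrix header) on mm10, which they analysed in Seurat 4.0.4. Their methods say that doublets were removed, and the files hold all nuclei stated as sequenced. Here, the 5% of nuclei with the highest Scrublet scores were removed per library (331 and 289), because the automatic threshold marked 0.104% and 0.13%. Both libraries were clustered together in R 4.3.3 and Seurat 5.3.0, on counts transformed by sctransform 0.4.2, with 2994 variable genes without the listed immediate early genes, 30 components, 20 neighbours and a resolution of 0.4. Clusters were named from fixed markers by a scoring rule set after the clusters were seen. UMIs were summed per class and library and divided by all UMIs of the class (Python 3.11.15, scipy 1.17.1, scanpy 1.11.5). Intervals are exact Poisson for levels, exact binomial (Clopper-Pearson) for ratios and shares, and they cover counting error only. A gene counted as past the fold at a ratio of 1.5 with at least 20 UMIs over both libraries. The ratio script was tested on simulated data. All 10 members are named, and other genes only as the 3 highest or lowest of a list, or where 5 or fewer are counted. Genes named for clusters are leading genes or markers. The members and lists were chosen with earlier results of these data known. A gene among those most like the members is not reported here.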

Additional observations from a re-analysis of the deposited data

How the results depend on the processing

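Each condition is 1 library, so no replicate could be left out and no paired analysis was possible. The summed log2 ratio of glutamatergic-like nuclei, 0.45, was above 0 in all alternatives run and moved to 0.37 when centred on the median gene, 0.35 per nucleus and 0.32 when scaled to genes no longer than Nr4a3. In GABAergic-like nuclei, 0.16 became −0.070 per nucleus and −0.20 in nuclei thinned to 2000 UMIs. In cluster 0, 0.32 became 1.19 per nucleus. Of single members, Egr3 in glutamatergic-like nuclei reversed from 0.58 to −0.20 in nuclei thinned to 2000 UMIs, where Fos moved from 0.85 to 0.23 and Fosb from 0.70 to 1.92. Ratios in thinned nuclei rest on far fewer UMIs and are given without counting intervals. For the share of nuclei with Egr3, Fos or Fosb at this depth, the interval of the difference included 0.

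Counts of members under a changed rule are given here without the share of all genes under the same rule. They show only how the counts move with the rule, and not whether the members differ from other genes. The 6 glutamatergic-like members past 1.5-fold became 3 per nucleus, 2 under the scaling to short genes and 0 at a fold of 2. In GABAergic-like nuclei the 1 higher member became 0 with at least 100 UMIs and 3 at a lower fold limit, and the 0 lower members became 1 without barcodes with 5% or more mitochondrial UMIs and 1 with no minimum. In oligodendrocyte-like nuclei the 0 higher members became 1 at a lower fold limit, and the 0 lower became 1 with no minimum and 1 at a lower fold limit. In microglia-like nuclei the 1 higher member became 2 without the mitochondrial barcodes, 0 with at least 100 UMIs, 4 with no minimum, 2 at a lower fold limit and 0 at a fold of 2. In cluster 0 the 3 higher members became 0 with all nuclei retained, 0 when centred, 10 per nucleus, 1 without the shared barcodes, 0 under the scaling to short genes, 6 at a lower fold limit and 0 at a fold of 2.

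The difference in the share with any member in glutamatergic-like nuclei, 4.34 points, was 7.06 at 5000 UMIs. That with at least 3 members, 0.83 points, was −0.15 at 1000 UMIs, 3.73 at 5000, 6.78 without thinning and 1.89 for at least 2 members. In cluster 0, 6.67 points for any member became 26.7 without thinning, and 0.46 points for at least 3 members became 6.43 at 5000 UMIs, 12.8 without thinning and 1.53 for at least 2 members. In oligodendrocyte-like nuclei, the share with at least 3 members differed by −2.86 points (−8.12 to 3.71) at 5000 UMIs. That was 3 of 105 vehicle and 0 of 58 OLE nuclei, because most nuclei of the class had too few UMIs. The cause of these changes was not tested. The scaling to short genes, the equal weighting of clusters and the removal of cluster 7 were chosen after seeing the data.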
